A study of Bos taurus with 6 samples.

Results

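Interferon-stimulated genes are switched on when a cell senses interferon. Type I interferons bind a receptor that signals through JAK kinases to transcription factors, which turn on a large set of antiviral genes. In cattle these genes are best known from early pregnancy, when interferon tau from the conceptus raises them in the uterus, the corpus luteum and blood leukocytes, and from viral infection. The panel described here holds 9 such genes, listed by symbol: ISG15, MX1, MX2, IFIT1, IFIT2, IFIT3, RSAD2, IFI6 and IFI44. The platform annotation named 15229 genes and gave 9 of the 43794 gene probes to 8 of the panel, with 2 probes for ISG15, and no probe to IFIT1, which was not analysed here.

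RNA came from granulosa cells, the estradiol-producing layer of the ovarian follicle, of dairy cows after calving. One group of cows was injected with 320 mg folic acid and 10 mg vitamin B12 and the other with 0.9% saline, from 3 weeks before calving until day 57 ± 2 after it. Cells were drawn from preovulatory follicles of at least 12 mm about 66 ± 2 h after a second prostaglandin F2 alpha dose, on day 57 ± 3, or on day 71 ± 3 when none of that size had been present. Each of 6 two-colour arrays held RNA of both groups, Cy5 marking the vitamin RNA on 3 arrays and the saline RNA on the other 3, and the design names 3 biological replicates, each with 2 dye-swapped arrays. Arrays 1 and 2 were taken as replicate 1, arrays 3 and 4 as replicate 2 and arrays 5 and 6 as replicate 3. Nothing in the labels tells a single animal from a pool, and the RNA went through 2 rounds of amplification, which can distort ratios.

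The RNAs were not alike in their cell content. The summed level of 10 granulosa markers was 176636, 233802 and 242056 intensity units in the vitamin RNAs of replicates 1, 2 and 3, against 30506, 191550 and 173088 units in the saline RNAs. The summed level of 23 leukocyte markers was 6832, 11190 and 8462 units in the vitamin RNAs of these replicates, against 87136, 3776 and 7441 units in the saline RNAs. The saline RNA of replicate 1 therefore stood apart, with little granulosa and much leukocyte signal. The vitamin RNA of replicate 1 was also unlike those of replicates 2 and 3 in several granulosa markers. On a log2 scale CYP19A1 was at 10.99 there, against 15.70 and 14.75, and FST at 10.87, against 14.01 in both. INHA and INHBA, the brightest of these markers there, were not lower, at 16.22 and 16.21. Their log2 ratios differed by 2.49 and 2.18 between the 2 arrays of replicate 1, so these levels are uncertain. A sum of intensities leans on the brightest markers, so the granulosa sums describe granulosa content only roughly. The 9 theca and stroma markers summed to 25526 units (vitamins) and 33453 (saline) in replicate 1. They summed to 13740 and 6060 in replicate 2, and 5541 and 21220 in replicate 3. Results are given with and without replicate 1. FOXL2, a defining granulosa transcription factor, was not detected in enough readings to be tested, nor were the leukocyte markers CD14, ITGAM, ITGB2, CSF1R, CD79A, LCP1 and NKG7. In bulk RNA, fewer cells of a type and less RNA per cell cannot be told apart.

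Most of the panel was close to the limit of detection. A reading is the signal of a spot in 1 channel, so each probe had 6 vitamin and 6 saline readings, and a reading counted as detected above the mean plus 2 SD of the array's negative-control spots in that channel. IFI6, a small membrane protein of interferon-treated cells, passed in all 12 readings, 6 with vitamins and 6 with saline. ISG15, a ubiquitin-like protein that is attached to other proteins, passed with its brighter probe in 6 of 6 vitamin readings and in 5 of 6 with saline. IFIT3, an RNA-binding partner in the IFIT complex, passed in 5 of 6 readings of each group, and MX2, a dynamin-like GTPase, in 5 of 6 with vitamins and 4 of 6 with saline. MX1, the classical antiviral GTPase, passed in 4 of 6 readings with vitamins and 3 of 6 with saline. IFI44 was detected in 3 of 6 readings of each group, and RSAD2 (viperin, which makes a nucleotide that stops viral polymerases) in 2 of 6 with vitamins and 4 of 6 with saline. These 7 probes passed the filter of 6 detected readings in 12. The dimmer ISG15 probe (3 vitamin and 2 saline readings) and IFIT2 (3 vitamin and 1 saline reading) did not and were not tested.

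**Figure D1:**
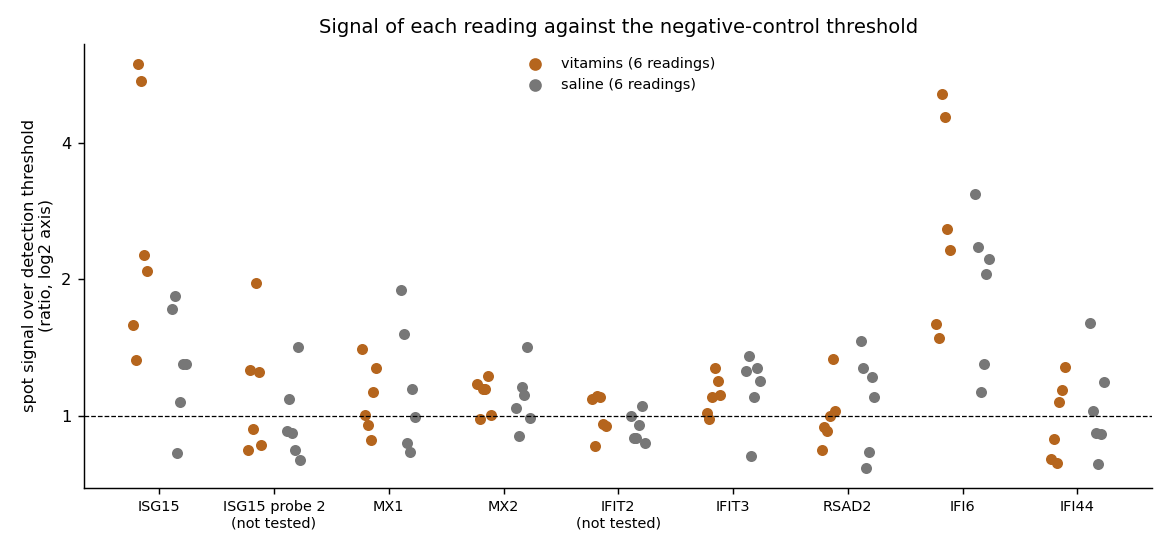
Spot signal divided by the detection threshold of its array and channel (log2 axis), with 6 vitamin and 6 saline readings for each of the 9 panel probes; the dashed line marks the threshold. The 2 vitamin readings of replicate 2 stand at 5.97 and 5.47 for ISG15 and at 5.13 and 4.56 for IFI6, while the readings of MX2 and IFIT2 lie around the line.

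ISG15 and IFI6 were the 2 panel genes with a large vitamin to saline difference, and they had it in replicate 2. For the brighter ISG15 probe, the vitamin readings of arrays 1 to 6 were 1.59, 1.33, 5.97, 5.47, 2.26 and 2.09 times the threshold, against 1.72, 1.84, 0.828, 1.07, 1.30 and 1.30 times in the saline readings. Its log2 ratios of vitamins over saline were 0.23 and -0.30 on the arrays of replicate 1, 2.74 and 2.69 on those of replicate 2, and 0.81 and 0.51 on those of replicate 3. Both arrays of replicate 2, and to a lesser degree both of replicate 3, were thus higher with vitamins, whichever dye the vitamin RNA carried, and those of replicate 1 lay on either side of 0. The replicate ratios were -0.03, 2.71 and 0.66, a mean of 1.11 ± 1.43 (SD, n = 3). The ratio of replicate 2 corresponds to a 6.56-fold difference, which is uncertain because its saline readings lay at the threshold, 1 below and 1 above it.

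IFI6 repeated the pattern of ISG15 in replicate 2. Its vitamin readings were 1.60, 1.49, 5.13, 4.56, 2.59 and 2.32 times the threshold on arrays 1 to 6, against 3.08, 2.36, 1.13, 1.30, 2.05 and 2.22 times in the saline readings. The log2 ratios were -0.43 and -0.43 in replicate 1, 2.14 and 2.13 in replicate 2, and 0.11 and -0.22 in replicate 3. Replicate 2 was higher with vitamins on both arrays, replicate 1 was lower on both, and replicate 3 had 1 array on each side of 0. The replicate ratios of -0.43, 2.13 and -0.06 averaged 0.55 ± 1.38 (SD, n = 3). The ratio of replicate 2 corresponds to a 4.38-fold difference, with both saline readings just above the threshold.

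**Figure D2:**
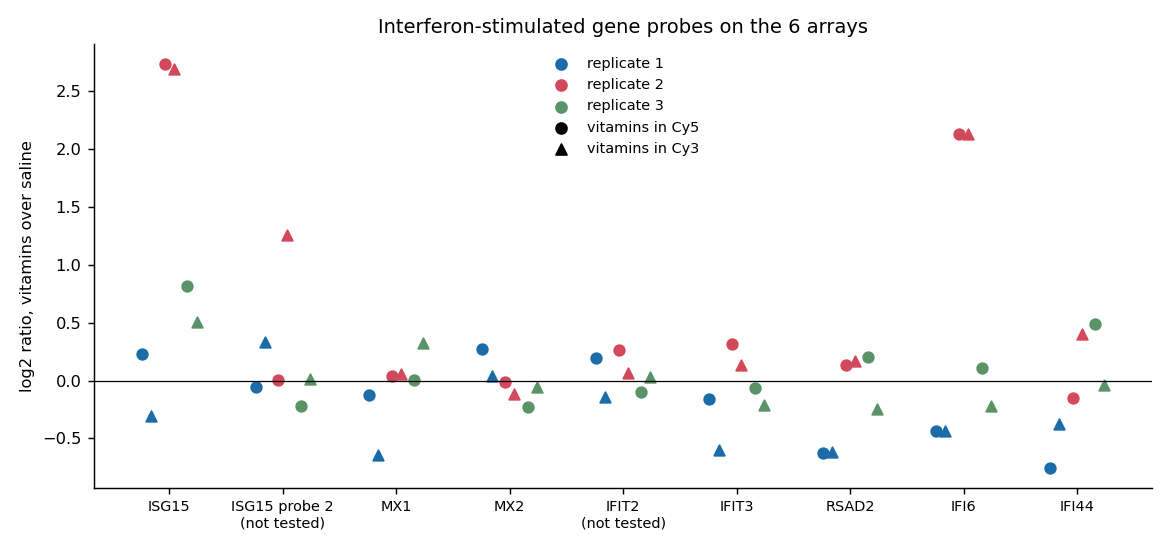
Log2 ratio of vitamins over saline for each panel probe on each of the 6 arrays, coloured by replicate, with circles for vitamins in Cy5 and triangles for vitamins in Cy3. The tested ISG15 probe and IFI6 lie between 2.13 and 2.74 on both arrays of replicate 2, the second ISG15 probe is at 0.01 and 1.26 there, and the ratios of MX1, MX2, IFIT2, IFIT3, RSAD2 and IFI44 lie between -0.75 and 0.49.

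The normalized levels showed that both RNAs of replicate 2 took part in that difference. On the log2 intensity scale, ISG15 averaged 8.14, 9.94 and 8.44 in the vitamin RNAs of replicates 1, 2 and 3, against 8.18, 7.23 and 7.77 in the saline RNAs. The vitamin RNA of replicate 2 was the highest of the 6 and its saline RNA the lowest, while the vitamin and saline RNAs of replicate 1 overlapped in their readings. IFI6 averaged 8.34, 9.70 and 8.53 in the vitamin RNAs, against 8.77, 7.57 and 8.59 in the saline RNAs. Here too replicate 2 held both ends of the order, and the readings of the saline RNAs of replicates 1 and 3 overlapped each other, as did those of the saline RNA of replicate 3 and both remaining vitamin RNAs. Over all readings the groups overlapped for both genes.

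**Figure D3:**
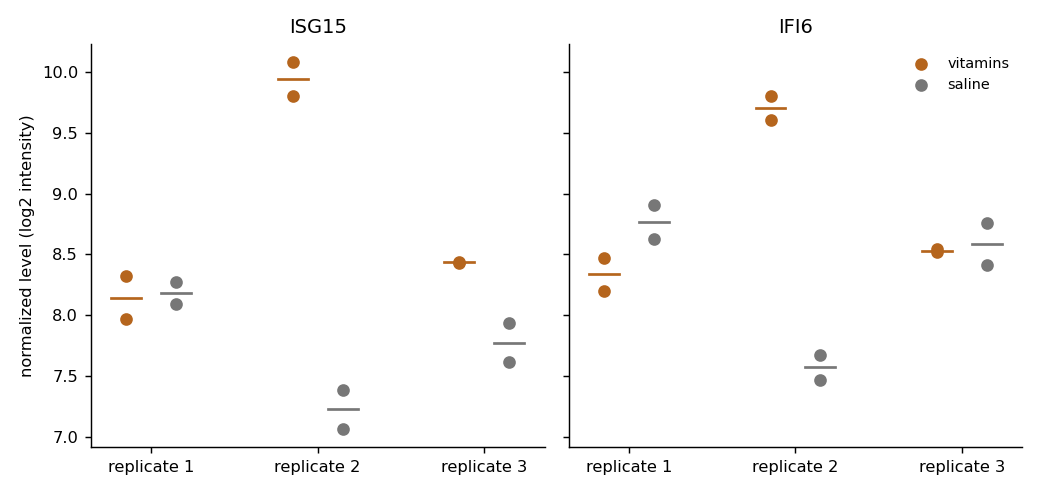
Normalized log2 intensity of ISG15 (left) and IFI6 (right) in the vitamin and saline RNAs of each replicate; points are the 2 readings of an RNA and bars their mean. In replicate 2 the vitamin RNA is at 9.94 for ISG15 and 9.70 for IFI6, with the saline RNA at 7.23 and 7.57.

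The second ISG15 probe was too dim to be set against the first. Its ratios were -0.05, 0.33, 0.01, 1.26, -0.22 and 0.02 on arrays 1 to 6. On array 3 both of its readings were below the threshold, and on array 4 the vitamin reading was at 1.96 times the threshold and the saline reading at 0.841 times. Its replicate ratios were 0.14, 0.64 and -0.10.

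The GTPases and the remaining panel genes had replicate ratios between -0.62 and 0.22. MX1 had ratios of -0.13, -0.64, 0.04, 0.06, 0.00 and 0.33 on arrays 1 to 6, and MX2, which RefSeq's annotation of ARS-UCD2.0 places next to it, had 0.27, 0.04, -0.01, -0.12, -0.23 and -0.06. MX1 was lower with vitamins on both arrays of replicate 1, and MX2 was a little above 0 there. Their means were -0.06 ± 0.29 and -0.02 ± 0.16 (SD, n = 3 each). The replicate 2 readings of MX1 were all below the threshold, at 0.957 and 0.885 times in the vitamin RNA and 0.869 and 0.834 times in the saline RNA, so its ratio in that replicate was not measured above background.

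Among the IFIT genes, IFIT3 had ratios of -0.16, -0.60, 0.32, 0.13, -0.06 and -0.21 on arrays 1 to 6. It was lower with vitamins in replicate 1 and higher in replicate 2, with small ratios in both, and its mean was -0.10 ± 0.30 (SD, n = 3). IFIT2, next to it in that annotation, was at 0.02, 0.16 and -0.03 in the 3 replicates, barely above the threshold where it was detected at all. RSAD2 had -0.63 and -0.62 in replicate 1, 0.14 and 0.17 in replicate 2, and 0.21 and -0.25 in replicate 3. Both arrays of replicate 1 were lower with vitamins, with the vitamin readings below the threshold (0.840 and 0.944 times). The mean of RSAD2 was -0.16 ± 0.41 (SD, n = 3). IFI44 was at -0.75 and -0.37 in replicate 1, -0.15 and 0.40 in replicate 2, and 0.49 and -0.04 in replicate 3, a mean of -0.07 ± 0.43 (SD, n = 3). Its vitamin readings in replicate 1 were also below the threshold (0.805 and 0.889 times). RSAD2 and IFI44 each passed the filter with 6 detected readings, which included both saline readings of replicate 1.

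None of the 7 tested panel genes passed the comparison of vitamins with saline. By limma over 26688 probes with Benjamini-Hochberg adjustment (two-sided), the adjusted p was 0.9998 for each of them. The unadjusted p by limma was 0.122 for ISG15, 0.382 for IFI6 and 0.489 for RSAD2, and from 0.627 to 0.924 for the others. Over all probes limma called 0 (0%), and 1244 (4.66%) had an unadjusted p under 0.05, where 0 of the panel genes did. The panel's median log2 ratio was -0.06, beside 0.01 over all 10938 genes. Of its 7 genes, 2 had a mean above 0, and 0 had the same sign in all 3 replicates, where 25.2% of all genes did. In replicate 2 all 4 readings of MX1 and of RSAD2, and 3 of 4 of IFI44, were below the threshold, so the signs of their ratios there carry no measurement.

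The size of the ratios depended on which replicate was included, while limma called 0 probes whichever one was left out. Without replicate 1, ISG15 had a mean of 1.69 (adjusted p = 0.757 by limma), IFI6 one of 1.04 (adjusted p = 0.770 by limma), and the panel's median was 0.11. Without replicate 2, ISG15 had a mean of 0.31 and IFI6 one of -0.24, and without replicate 3 these means were 1.34 and 0.85. By slide, which separates replicate 1 from the other two, ISG15 was at -0.03 on the first slide and 1.69 on the second, and IFI6 at -0.43 and 1.04.

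The replicates themselves differed for both genes by more than the 2 arrays of a replicate did. A moderated F test by limma of equal ratios in the 3 replicates, with a dye term, gave an adjusted p of 6.41e-07 for ISG15 and 7.67e-07 for IFI6. RSAD2 also passed (adjusted p = 0.0315 by limma), but not with median centring (0.0936), no dye term (0.104) or the next best pairing (0.394), while IFI44 (0.0501), IFIT3 (0.108), MX1 (0.174) and MX2 (0.535) did not. The gap between the 2 arrays of replicate 2 was 0.045 for ISG15 and 0.0076 for IFI6. This test called 43.7% of all probes, so 3 of 7 panel genes was close to the background. It measures array error only, and it is too lenient because the arrays were paired by their agreement. With the next best pairing it called 0.165% of probes, and the adjusted p was 0.585 for ISG15 and 0.716 for IFI6.

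Within the panel, ISG15 and IFI6 had the most similar levels. Their Pearson correlation over the 12 readings, which are 6 RNAs each read on 2 arrays and share their array with another reading, was 0.92. The 21 pairs of tested panel genes had a median of 0.23, from -0.60 for MX2 with IFI44 upward. IFIT3 with RSAD2 (0.78) and RSAD2 with IFI44 (0.66) came next, both among dim probes. ISG15 correlated at 0.23 with IFIT3 and at 0.00 with RSAD2 over these levels, while over the ratios of the 6 arrays the coefficients were 0.91 and 0.79. Those 6 ratios are 3 replicates with 2 arrays each, and the RSAD2 readings of replicate 2 were all below the threshold.

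Many interferon-stimulated genes outside the panel were bright enough to be read, and a good part of them had a high ratio of vitamins over saline in replicate 2. Of 52 listed genes, 41 had a probe and 32 were tested. The list's median ratio was -0.07, 0.58 and 0.01 in replicates 1, 2 and 3, beside -0.04, 0.01 and 0.02 over all genes. In replicate 2, 13 of the 32 had a ratio of at least 1, where 7.15% of all genes did, against 2 of 7 panel genes. Replicate 2 had the highest ratio of the 3 in 22 of the 32, where it did in 35.7% of all genes. Over the 32 genes, the vitamin RNA of replicate 2 had the highest level of the 3 vitamin RNAs in 16, and its saline RNA the lowest of the 3 saline RNAs in 22. Among the 13 genes these counts were 9 and 13, which follow in part from picking those genes by that replicate's ratio. The share of all genes was not counted for these levels, so the counts have no background to be read against. IFITM2, named after its values were seen, had log2 levels of 12.73, 12.60 and 11.68 in the vitamin RNAs of replicates 1, 2 and 3, against 12.50, 9.77 and 11.40 in the saline RNAs.

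The 4 genes of lowest p in that list were HERC5, IFI27, LGALS9 and IFITM3. HERC5, the ligase that attaches ISG15 to proteins in humans, was at 1.16, 1.53 and 0.13 in replicates 1, 2 and 3 (0.94 ± 0.72, SD, n = 3). IFI27 was at 2.67, 4.54 and -0.25 (2.32 ± 2.42, SD, n = 3), though its 2 tested probes had means from 0.35 to 2.32. In replicate 2 these probes ran from 0.57 to 4.54. IFITM3, which blocks the entry of viruses through endosomes, was at 0.76, 2.96 and 0.31, with its 2 probes at 2.61 and 2.96 in replicate 2. LGALS9, a galectin, was at -1.31, -0.31 and -0.32, with means from -0.64 to -0.02 over its 4 probes. None passed by limma (adjusted p = 0.9998 for each), and 1 of the 32 had an unadjusted p under 0.05, where 6.14% of all genes did.

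Other genes with a ratio of at least 1 in replicate 2, named after their values were seen, were IFITM2 (2.83), DHX58 (2.65), PARP12 (2.10), PLAC8 (2.00, with its 5 probes from 0.87 to 2.00), the brighter probe annotated OAS1 (1.55), TRIM25 (1.39), PARP9 (1.34), UBA7 (1.23), IFIH1 (1.15) and IFI16 (1.10). IFITM2 and IFITM3 are close paralogs whose probes may share RNA. DHX58 and IFIH1 are sensors of viral RNA, and PARP9 and PARP12 are ADP-ribosyltransferase family members. Several of these genes were low with vitamins in replicate 1, with PLAC8 at -2.43, IFI16 at -2.66 and IFIH1 at -1.27. Others were not, with IFITM2 at 0.24 and UBA7 at 0.98. The test of differing replicates passed for 22 of the 32 genes, where it passed for 50.4% of all genes.

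**Figure D4:**
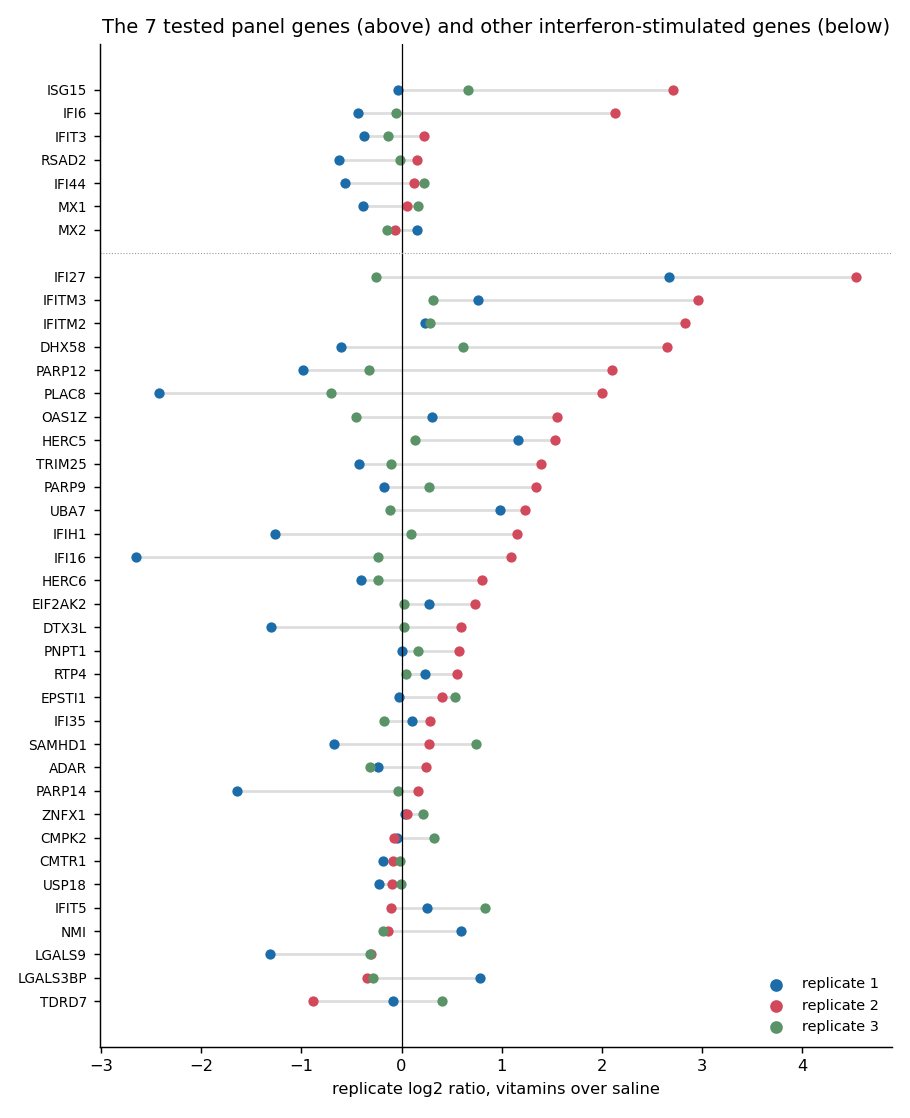
Replicate log2 ratios of vitamins over saline for the 7 tested panel genes (above the dotted line) and 32 other interferon-stimulated genes (below), each ordered by replicate 2. IFI27, at 4.54 in replicate 2, and IFITM3, at 2.96, lie above ISG15 at 2.71, and TDRD7, at -0.89, is the lowest in that replicate. Each gene is shown by its brightest tested probe, and the other IFI27 probe was at 0.57 in replicate 2.

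The enzymes that conjugate ISG15 were measured for 6 of 7 listed genes, with a median of 0.01, 1.02 and -0.11 in the 3 replicates; HERC5, HERC6, UBA7, TRIM25 and USP18 among them, 5 of the 6, also stand in the list above. UBA7, the activating enzyme, was at 0.98, 1.23 and -0.12 (0.70 ± 0.72, SD, n = 3). ARIH1 was at 0.23, -0.49 and -0.52. USP18, which removes ISG15 and is itself interferon-induced, was at -0.22, -0.09 and -0.00, detected in 9 of 12 readings. Of these 6 genes 0 passed by limma and 1, HERC5, had an unadjusted p under 0.05.

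Receptors of interferon and their signalling chain had medians near 0 in replicate 2. The list's 14 tested genes centred on 0.13, 0.02 and -0.12 in replicates 1, 2 and 3, and 0 of the 14 had a ratio of at least 1 in replicate 2, a count close to the 7.15% of all genes. STAT2, a transcription factor of this pathway, was at 0.59, 0.62 and 0.37 (0.53 ± 0.13, SD, n = 3; unadjusted p = 0.0225 by limma). Its partner IRF9, named after its values were seen, was at 0.08, 0.04 and -0.01. JAK2, a kinase of the interferon gamma receptor, was at -0.83, -0.57 and -0.57 (-0.65 ± 0.15, SD, n = 3; unadjusted p = 0.0113 by limma), though its 3 probes ran from -0.65 to -0.07. IFNGR2, a chain of that receptor, was at -1.17, -0.39 and 0.08, and SOCS1, a feedback inhibitor, at 1.01, 0.78 and -0.46. None passed after adjustment (0.979 for JAK2 and 0.9998 for STAT2 by limma).

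Interferon regulatory factors and sensors had medians of -0.56, 0.32 and -0.03 over 17 tested genes. TBK1, the kinase that activates IRF3, was at -0.70, -0.74 and -0.16 (-0.53 ± 0.33, SD, n = 3; unadjusted p = 0.0457 by limma), and TLR7, a sensor of single-stranded RNA, at -0.72, -0.32 and -0.11. IRF5 was at -2.36, 0.32 and -0.35, with its 2 probes averaging -0.80 and 0.01, and DHX58 at -0.60, 2.65 and 0.62. IRF7, itself interferon-induced and named after its values were seen, was at -0.89, 1.89 and -0.02. After adjustment 0 of the 17 passed. Of 18 listed interferon symbols 7 had a probe and 1 was detected often enough to be tested. It was IFNAC, an interferon alpha gene, at 0.52, -0.25 and -0.37.

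Genes of interferon gamma response and antigen processing had medians of -0.36, 0.78 and 0.13 over 14 tested genes, and 6 of the 14 had a ratio of at least 1 in replicate 2, where 7.15% of all genes did. Among these 6, B2M and BOLA depended on the probe. In replicate 2 the tested probes of B2M ran from -0.11 to 2.75 and those of BOLA from 0.10 to 3.22. PSMB10, an immunoproteasome subunit, was at 0.65, 1.79 and 0.61 (1.02 ± 0.67, SD, n = 3; unadjusted p = 0.0245 by limma), with its 2 probes averaging 0.83 and 1.02. PSME1 and PSME2, subunits of the proteasome activator, were at -0.01, 0.58 and 0.66 and at -0.38, 0.98 and 0.83. CXCL10, a chemokine, was at -0.90, 0.28 and -0.52. After adjustment 0 of the 14 passed.

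Leukocyte markers also differed between the replicates, and their part in the panel's values was not tested. Of 23 tested leukocyte markers, 0 were above 0 in replicate 1, 21 in replicate 2 and 8 in replicate 3. Of all 10938 genes, 5107, 5616 and 5759 were. In replicate 2, 11 of the 23 had a ratio of at least 1, where 7.15% of all genes did. Replicate 2 had the highest ratio in 20 of the 23, where it did in 35.7% of all genes. The markers' median ratios were -2.60, 0.88 and -0.11. In replicate 1, where that median was lowest, ISG15 was at -0.03 and IFI6 at -0.43. RSAD2 and IFI44 were at -0.62 and -0.56 there, with their vitamin readings below the threshold. In replicate 2, where the median was highest, ISG15 was at 2.71 and IFI6 at 2.13. They were at 0.66 and -0.06 in replicate 3. The saline RNA of replicate 1 had the highest leukocyte sum, 87136 units, with ISG15 at a log2 level of 8.18 and IFI6 at 8.77. The vitamin RNA of replicate 2 had 11190 units, with levels of 9.94 and 9.70. Granulosa markers had medians of 1.07, 0.02 and 0.95 in the 3 replicates, with 9, 5 and 8 of the 10 above 0. AMH among them was at 0.94, 0.85 and 1.23 and CYP19A1, the aromatase gene, at 3.59, 2.12 and 0.92, though its 3 tested probes had means from 0.10 to 2.21. Others, named after their values were seen, were not above 0 throughout. FST was at 1.19, -0.60 and 1.26 and GJA1 at -0.48, -0.11 and 0.07. The 9 theca and stroma markers had medians of 0.17, 0.72 and -0.42.

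**Figure D5:**
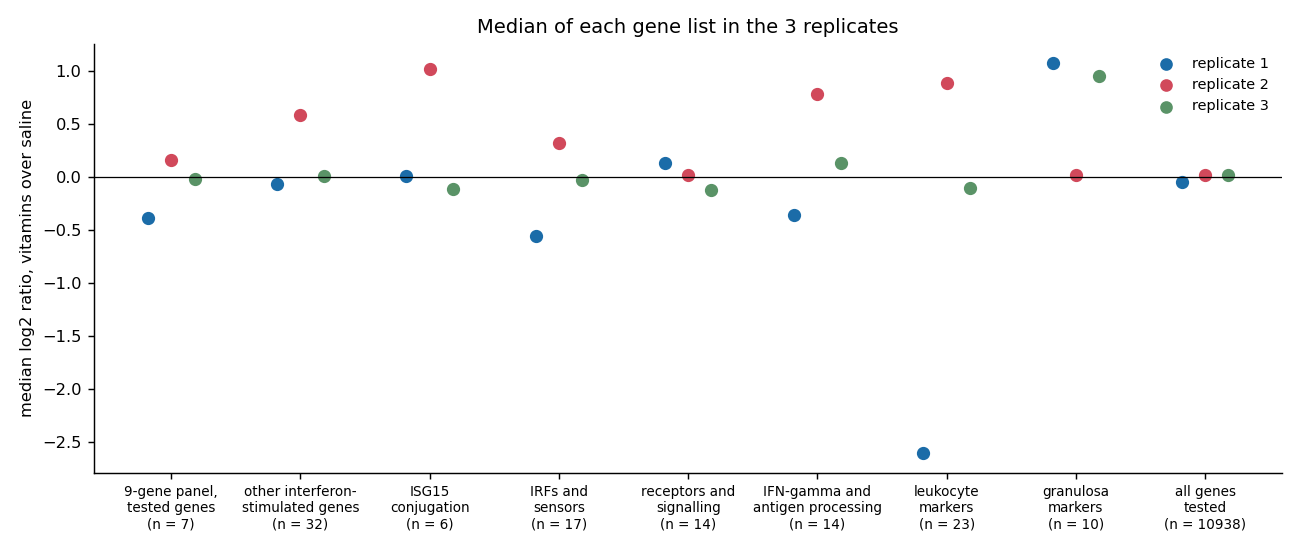
Median log2 ratio of vitamins over saline in replicates 1, 2 and 3 for the tested panel genes, 5 interferon-related lists, leukocyte and granulosa markers, and all genes. Leukocyte markers are at -2.60, 0.88 and -0.11 and other interferon-stimulated genes at -0.07, 0.58 and 0.01.

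The genes that best followed the panel's mean centred level over the 12 readings had coefficients from 0.89 to 0.90. They were AUP1, RPS19, CHST2, RPS24, C1QC, UROD, LOC504773 and 1 more whose symbol is that of a microRNA, which is given no value here. That mean level itself followed IFI6 (0.91) and ISG15 (0.79) more closely than IFIT3 (0.64), RSAD2 (0.54), IFI44 (0.53), MX1 (0.42) or MX2 (-0.28). Likeness to it is therefore mainly likeness to IFI6 and ISG15, not to each panel gene. The genes named were also picked as the highest among those tested, over readings that repeat the same RNAs. AUP1, a protein of lipid droplets, was at -0.98, 2.69 and 0.25 in replicates 1, 2 and 3. C1QC, a complement chain made by macrophages, was at -1.62, 1.68 and 0.68, and LOC504773 at -4.01, 4.33 and 2.06. RPS19 and RPS24 code for ribosomal proteins, whose probes may also bind RNA of related copies. Each panel gene's correlation with the mean level of the other panel genes was highest for IFI6 (0.81), followed by IFIT3 (0.56) and ISG15 (0.48), and lowest for MX2 (-0.34).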

How the data were processed

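Granulosa cell RNA of vitamin-treated and saline cows was measured on 6 two-colour arrays. The deposited scanner files hold each spot's median pixel intensity and background in Cy5 and Cy3, not yet normalized, per the file headers. The authors' deposited table holds log2 ratios of the same arrays and served as an alternative; its column medians were 0.001, 0.015, -0.018, -0.007, -0.003 and 0.005, its correlations with the turned ratios ran from 0.861 to 0.962, and no label or header records how it was made. The panel and the other lists were chosen with earlier results of these data known.

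Intensities were background-corrected (normexp, offset 50) and loess-normalized within arrays with limma 3.58.1 in R 4.3.3, leaving out control and ignored spots. Log2 ratios were turned to vitamins over saline by the dyes in the labels. The labels do not say which dye-swapped arrays share a replicate: arrays were paired by the highest summed correlation of their ratios (2.46, against 0.731 for the next pairing), and p-values rest on 3 replicate ratios. Levels used Aquantile scaling. Detection, defined in the text, kept 26689 of 43794 probes. limma's lmFit and eBayes tested the 3 replicate ratios against 0, with Benjamini-Hochberg adjustment and a threshold of 0.05, and replicates were compared by a moderated F test on arrays. Probe names came from the platform annotation (21790 probes with 1 symbol, 22004 with none), updated through the RefSeq gene table (ARS-UCD2.0). The brightest tested probe stood for a gene. Named were all panel genes, the 4 genes of lowest p in each list and the 8 most alike.

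Both tests were checked on simulated data. The test of vitamins over saline recovered 0% of log2 changes of 1, 40% of 2, 52% of 3 and 72% of 4. So 0 calls between vitamins and saline do not exclude changes of any of these sizes. The test of differing replicates recovered 68% of changes of 1 and 100% of those of 2, 3 and 4. Its simulation changed 200 of 26605 probes and took the pairing as known. It therefore does not cover the choice of pairs by their agreement. The small number of replicates limits the precision. Alternatives covered background correction, normalization, filter, slide, block, dye term, pairing and left-out replicates. No sequences are printed.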

Additional observations from a re-analysis of the deposited data

How the results depend on the processing

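The count of probes called between vitamins and saline by limma was 0 under all 14 alternatives, beside 1244 at an unadjusted p under 0.05 in the analysis reported. ISG15 stayed above 0 in 12 of 12 alternatives (0.31 to 1.69, adjusted p from 0.607 to 1.0 by limma) and IFI6 in 11 of 12 (-0.24 to 1.04). With replicates as a random block, ISG15 was at 1.11 (adjusted p = 0.711 by limma) with 0 calls, and with the slide as a block at 0.83. The panel's median ran from -0.17 to 0.11 when each replicate was left out. Near 0, MX2 turned to 0.014 and IFI44 to 0.00043 with median centring, and MX2 to 0.0054 with no background correction and 0.028 with the slide block. Leaving out 1 replicate at a time gave ranges that crossed 0 for MX1 (-0.17 to 0.11), MX2 (-0.10 to 0.047), IFIT3 (-0.26 to 0.044), RSAD2 (-0.32 to 0.068), IFI44 (-0.22 to 0.17) and IFI6 (-0.24 to 1.04). The positive end came without replicate 1, except for MX2, which was at 0.0079 without replicate 2 and 0.047 without replicate 3; IFI6 was below 0 without replicate 2. The number of probes differing between replicates was 11627, and became 17849 in the authors' deposited table, 17602 with mean pixel intensity (an alternative chosen after seeing the data), 7413 with no dye term and 44 with the next pairing. RSAD2 lost its call with no dye term (adjusted p = 0.104 by limma), median centring (0.0936) and the next pairing (0.394), and IFI44 gained one with no background correction (0.0473), in the authors' deposited table (0.0192) and with mean pixel intensity (0.0157). The cause was not tested. Signal limits MX1, MX2, the IFIT genes, RSAD2 and IFI44, whose readings lay near the detection threshold. The planned motif search in promoters was not run.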
